A study of Oryza sativa with 4 samples.

Results

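Protein disulfide isomerases form and rearrange the disulfide bonds of proteins that enter the endoplasmic reticulum (ER), and BiP is the HSP70 chaperone of the same compartment. This account follows the rice PDIL (PDI-like) genes and BIP1 in coleoptiles that germinated with or without oxygen. The genes were chosen by name and by a filter on mean level that is blind to group. In the RefSeq gene table used for names, 0 genes had a current symbol that starts with PDIL, and 12 carried such a name among their synonyms. Of these 12, 9 had a probe set of their own with a mean log2 level of at least 4 over the 4 arrays, and with BIP1 this gave 10 genes of the 12291 genes tested. None of the 10 passed through 1 group alone, since the lowest level of any of them on any array was 6.06. PDIL1-4 (LOC4327971) had the lowest mean inside this limit, 6.91. Well under the limit of 4 lay PDIL1-2 (LOC4335906) at 2.83 and PDIL1-3 (LOC4329652) at 2.70, and PDIL5-3 (LOC4329624) had no probe set of its own.

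Disulfide formation in the ER is an oxidation: PDI passes electrons from client thiols to the oxidase Ero1, which in yeast and animals hands them to oxygen. BiP binds unfolded chains with the help of J-domain partners, while calreticulin retains glycoproteins that are still folding. In rice endosperm PDIL1-1 is needed for folding of proglutelin, and PDIL2-3 for placing cysteine-rich prolamin in protein bodies. When unfolded protein accumulates, plants raise many ER chaperone genes through membrane-bound bZIP factors and the RNA-splicing sensor IRE1.

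The tissue was the coleoptile, the sheath around the shoot of a grass seedling, of Oryza sativa cv Nipponbare. All seedlings had grown for 4 days in darkness at 28 °C from bleach-sterilized seed. The aerobic group (2 arrays) germinated in air and had its primary leaf cut away before RNA extraction. The anoxic group (2 arrays) germinated in an anaerobic chamber under N2 and H2, and according to the labels forms no primary leaf, so cutting and oxygen supply cannot be told apart. Total RNA was read on the Affymetrix Rice Genome GeneChip, and levels are given as log2(intensity + 1) of the deposited normalized intensity. Levels of different probe sets are not comparable with each other, so only differences within a gene are read. In bulk RNA, fewer cells of a type and less transcript per cell cannot be told apart. The labels do not tell whether the replicates of a group were grown apart, so what the p-values weigh is array-to-array spread that may be technical only.

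A gene was called at a limma adjusted p under 0.05 with a log2 change of at least 1 in size. By this rule 32.1% of the 18826 tested probe sets were called, so a single call is common in this comparison. Replicate arrays correlated at 0.973 in air and 0.968 in anoxia, and arrays of different groups at 0.687 to 0.698 (Pearson r over the 18826 tested probe sets). Probe sets are no replicates.

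Of the 10 genes, 5 fell in anoxia and 0 rose, where 18.0% of all tested genes fell and 15.9% rose. The 5 were PDIL1-4, PDIL2-3, BIP1, PDIL1-1 and PDIL1-5, with levels 2.13 to 3.23 times lower. At an unadjusted p under 0.05 the limma counts were 6 lower and 0 higher, beside 26.7% of all tested genes lower and 26.6% higher. The median change of the 10 was -0.98 log2 units, beside 0.03 over all genes tested. Both anoxic arrays lay under both aerobic arrays for 7 of the 10, beside 37.1% of all tested genes. Without aerobic replicate 1 or aerobic replicate 2 the number of calls dropped to 1 and 2. Without either anoxic array it was 4.

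**Figure D1:**
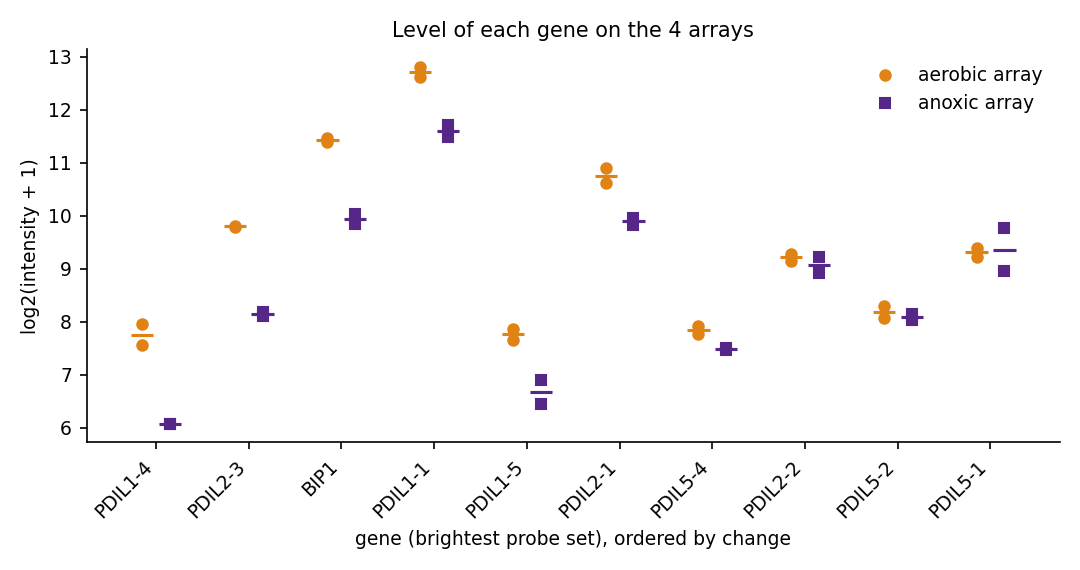
Level of the 9 PDIL genes and BIP1 on each array, as log2(intensity + 1) of the gene's brightest probe set. Circles are the 2 aerobic and squares the 2 anoxic arrays, bars are group means, and genes run from the most negative change on the left. In the first 7 genes both squares lie under both circles, and in PDIL2-2, PDIL5-2 and PDIL5-1 they overlap.

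A name in this family does not always point to 1 gene. The gene table gives PDIL2-1 as a name of 2 genes, LOC4337858 and LOC4327971, and PDIL5-1 as a name of 2 others, LOC4332486 and LOC4347226. Here each gene has the name that no other gene shares within 1 numbering: LOC4337858 is PDIL2-1, LOC4327971 is PDIL1-4, LOC4332486 is PDIL5-1 and LOC4347226 is PDIL2-3. The choice bears on the result, because the genes that share a name differ in their values. Under the name PDIL5-1, LOC4347226 fell by 1.65 on the log2 scale and LOC4332486 differed by 0.05. Under the name PDIL2-1, LOC4327971 fell by 1.69, and LOC4337858 stood at -0.86, short of the fold threshold.

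BIP1 (LOC4328075), the ER-resident HSP70, read 11.39 and 11.46 on the aerobic arrays and 10.03 and 9.85 on the anoxic arrays. The groups did not overlap. BIP1 fell by 1.48 ± 0.17 log2 units (SE), from a mean of 11.42 ± 0.05 (SD, n = 2) to 9.94 ± 0.13, which is 2.80-fold lower (limma, adjusted p = 0.00607). The call was lost without aerobic replicate 1 (adjusted p = 0.059) or aerobic replicate 2 (adjusted p = 0.0604), with changes of -1.52 and -1.45. BIP4 (LOC4338866), another BiP gene, which ER stress induces in rice, read 2.95 to 2.97 on all 4 arrays. That is under 4.05, the highest group mean of any of the 64 reporter probe sets on the array, which read sequences used in transgenic plants and served as background here. BIP2 and BIP3 had no probe set of their own.

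PDIL1-1 (LOC4350002), the classical PDI of rice endosperm, read 12.61 and 12.80 in air and 11.70 and 11.48 in anoxia. Both anoxic arrays were lower than both aerobic arrays. The gene fell by 1.11 ± 0.19 (SE), a level 2.16-fold lower (limma, adjusted p = 0.0145). That change lies near the fold threshold of 1. The adjusted p rose to 0.0776 and 0.0924 in the fits without aerobic replicate 1 and 2, and to 0.0638 in the fit that left out anoxic replicate 2, which ended the call in all 3.

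PDIL2-3 (LOC4347226), the isomerase tied to prolamin deposition, had the tightest replicates of the 10, with 9.79 and 9.80 in air and 8.18 and 8.11 in anoxia. It fell by 1.65 ± 0.16 log2 units and 3.14-fold (limma, adjusted p = 0.00418). Leaving out any 1 array kept the change between -1.68 and -1.62. The adjusted p then lay between 0.032 and 0.0498, close to the threshold in the fits without an aerobic array. The suffix of its probe set marks probes that may also match other transcripts.

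PDIL1-4 (LOC4327971), a further isomerase and by this name of the subfamily of PDIL1-1, read 7.96 and 7.55 in air, and 6.07 and 6.06 in anoxia. The aerobic arrays differed from each other by more than the anoxic arrays did, and both lay above them. It fell by 1.69 ± 0.21 log2 units, or 3.23-fold, the most negative change of the 10 (limma, adjusted p = 0.00702). Without aerobic replicate 1 the change was -1.49 and the call was lost (adjusted p = 0.0538). Without aerobic replicate 2 it was -1.89 (adjusted p = 0.0451).

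PDIL1-5 (LOC4340223), from the same subfamily by name, read 7.65 and 7.87 in air and 6.44 and 6.89 in anoxia. The 2 anoxic arrays stood apart from each other by more than the 2 aerobic ones, without reaching them. The fall was 1.09 ± 0.23 log2 units, or 2.13-fold (limma, adjusted p = 0.0254). Only leaving out anoxic replicate 2 kept this call among the fits with 1 array left out (adjusted p = 0.0483); the values were 0.112 and 0.145 without aerobic replicate 1 and 2, and 0.08 without anoxic replicate 1.

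PDIL2-1 (LOC4337858) was read by 2 probe sets. The suffix of the brighter one marks probes that may also match other transcripts. The brighter gave 10.90 and 10.61 in air and 9.83 and 9.95 in anoxia, and the dimmer gave 9.84 and 9.48 in air and 8.65 and 8.93 in anoxia. Both put the anoxic arrays lower, without overlap. Their differences were -0.86 ± 0.19 and -0.87 ± 0.22 log2 units (limma, adjusted p = 0.0286 and 0.0413), so the p threshold was met on both probe sets and the fold threshold on neither. Without any 1 array the adjusted p of the brighter probe set lay between 0.0806 and 0.122.

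The other 4 genes were not called, and their intervals bound what these arrays could show. PDIL5-4 (LOC4343420) had means of 7.85 ± 0.11 (SD, n = 2) in air and 7.49 ± 0.02 in anoxia, a small gap without overlap between arrays, with a difference of -0.36 log2 units (95% interval -0.82 to 0.09, limma, adjusted p = 0.162). PDIL2-2 (LOC4326806) read 9.15 and 9.28 in air and 8.91 and 9.22 in anoxia, and the groups overlapped. Its difference was -0.14 (-0.68 to 0.39, adjusted p = 0.596). PDIL5-2 (LOC4335881) read 8.07 and 8.30 in air and 8.03 and 8.14 in anoxia, also with overlap, and differed by -0.10 (-0.59 to 0.39, adjusted p = 0.69).

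PDIL5-1 (LOC4332486), a short family member whose barley counterpart is a host factor for bymoviruses, read 9.22 and 9.39 in air and 8.95 and 9.76 in anoxia. The anoxic arrays lay on either side of the aerobic ones. The difference was 0.05 log2 units with the widest interval of the 10, -0.82 to 0.92 (limma, adjusted p = 0.918). It was 0.45 without anoxic replicate 1 and -0.35 without anoxic replicate 2, so the sign rested on which anoxic array was kept.

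The whole intervals of PDIL2-3 (-2.09 to -1.21), PDIL1-4 (-2.26 to -1.13) and BIP1 (-1.95 to -1.02) lay below those of PDIL2-2, PDIL5-1, PDIL5-2 and PDIL5-4. Differences between the changes of single genes were not tested, and for a single value 2 arrays against 2 allow no exact two-sided permutation p below 0.333.

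**Figure D2:**
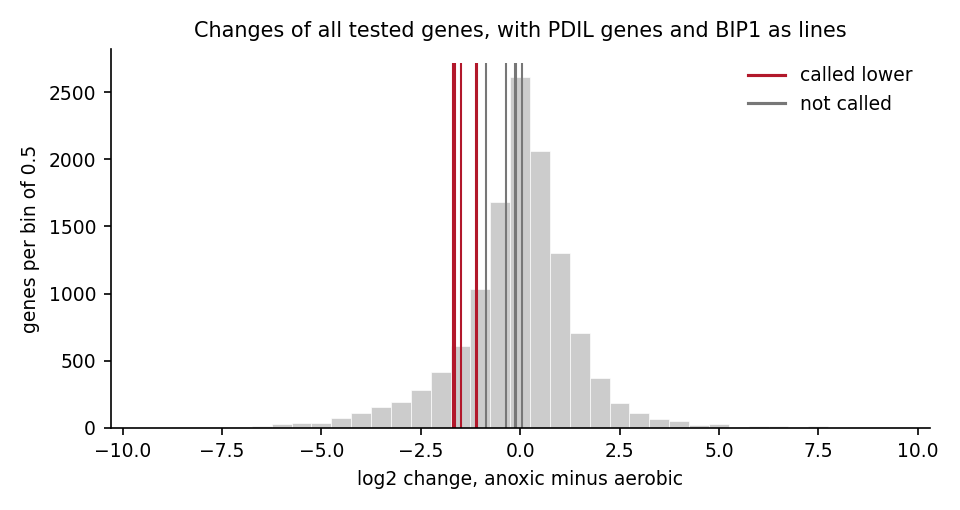
Distribution of the log2 change (anoxic minus aerobic) of all 12291 tested genes in bins of 0.5, with the 9 PDIL genes and BIP1 as vertical lines, red where called lower and grey where not called. All 10 lines lie between -1.69 and 0.05, well inside the range of all genes.

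The falls were moderate against the spread of all genes. The change of PDIL1-4 ranked 1430 of 12291 counted from the most negative, that of PDIL2-3 ranked 1470, and that of BIP1 ranked 1666. PDIL1-1 and PDIL1-5 ranked 2230 and 2261. PDIL5-1 ranked 6251, near the middle.

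Among the other tested genes of the ER folding list, only calreticulin and a J-domain partner of BiP were called, both lower. The ER list held 38 genes by symbol, of which 28 were tested. No gene for the oxidase Ero1, calnexin or GRP94 was matched by name, so these were not read. In it 7 fell and 0 rose by limma, a share of 25%, beside 18.0% of all tested genes. At an unadjusted p under 0.05, 15 were lower and 2 higher, beside 26.7% and 26.6% of all tested genes. Outside PDIL and BIP1 the count was 2 of 18, or 11.1%, which is under the 18.0% of all tested genes. The median change was -0.62 over the 28 and -0.59 over the 18. Of the 28, both anoxic arrays were lower than both aerobic arrays in 19 and higher in 5, beside 37.1% and 40.7% of all tested genes. The count of 7 dropped to 1 without aerobic replicate 1 and to 2 without aerobic replicate 2.

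CRO1 (LOC4342826), calreticulin, the calcium-binding lectin chaperone, read 12.47 and 12.54 in air and 11.07 and 11.28 in anoxia. The gap between the groups was over 1 log2 unit on every pair of arrays, and the gene fell by 1.33 ± 0.18 (limma, adjusted p = 0.00815). ERDJ3B (LOC4337860), a J-domain partner of BiP, read 8.85 and 8.81 in air and 7.73 and 7.30 in anoxia and fell by 1.32 ± 0.22 (adjusted p = 0.0136). Both calls were lost without aerobic replicate 1 (adjusted p = 0.0679 for CRO1 and 0.1 for ERDJ3B) or aerobic replicate 2 (adjusted p = 0.0703 and 0.0955).

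DAD1 (LOC4335701), a subunit of the oligosaccharyltransferase that attaches N-glycans, passed the p threshold and not the fold threshold, at -0.94 ± 0.17 (limma, adjusted p = 0.0161; 0.0595 to 0.0909 with any 1 array left out). It read 9.91 and 9.79 in air and 8.87 and 8.94 in anoxia. The transferase's other tested subunits ranged from -0.64 for STT3-A (LOC4339345) to 0.10 for STT3-B (LOC4337389), and none of these passed either threshold.

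The genes of the ER stress sensors had estimates of both signs, and none was called. BZIP50 (LOC4341554), whose mRNA IRE1 splices, stood at -0.78 ± 0.21 (limma, adjusted p = 0.0454), and BZIP39 (LOC4338781), a membrane-bound factor, at 0.93 ± 0.24 (adjusted p = 0.0432). BZIP60 (LOC4344086), a further bZIP gene of the list, stood at -0.28 ± 0.31 with overlapping arrays (adjusted p = 0.509). IRE1 (LOC4343198) itself differed by 0.36 ± 0.19 (adjusted p = 0.202). The array reads total transcript, so splicing of BZIP50 was not measured. ERDJ3A (LOC4332515), another J-domain gene, stood at 0.82 ± 0.24 (adjusted p = 0.0568), opposite in sign to ERDJ3B. ERDJ2 (LOC4335435), a J-domain gene of the translocation channel, differed by 0.22 ± 0.18 (adjusted p = 0.376). ERDJ7 (LOC4351914), the other tested J-domain gene, stood at -0.85 ± 0.29 with both anoxic arrays lower (adjusted p = 0.081). The tested genes of ER-associated degradation, DER1 (LOC4338013), HRD1 (LOC4340826) and OS9 (LOC9268424), stood at -0.64, -0.64 and -0.57, and none passed either threshold.

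**Figure D3:**
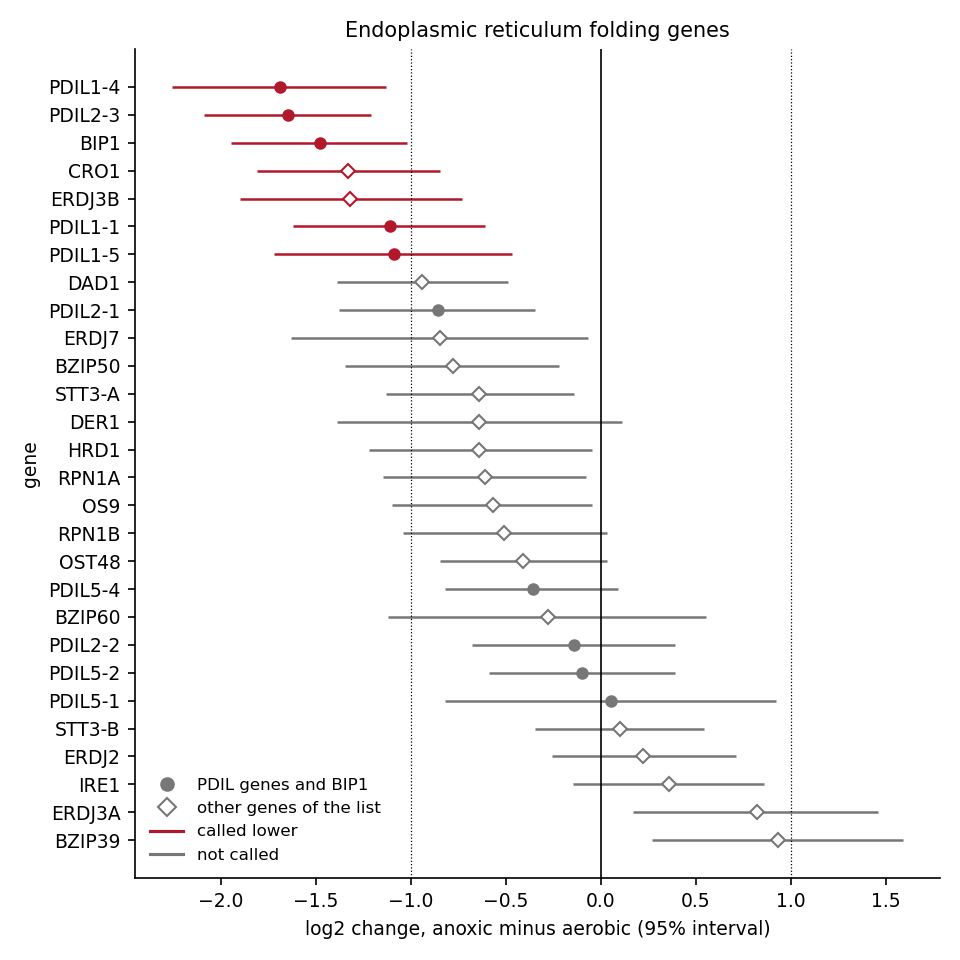
Log2 change (anoxic minus aerobic) with its 95% limma interval for the 28 tested genes of the ER folding list. Filled circles are PDIL genes and BIP1, open diamonds the other genes, red marks called genes and dotted lines the fold threshold; 7 genes are called lower, and estimates run from -1.69 for PDIL1-4 to 0.93 for BZIP39.

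Of the 3 tested genes of cytosolic HSP90, the HSP81 genes, 1 rose and 0 fell, beside 15.9% and 18.0% of all tested genes, and no HSP70 gene was matched by symbol. HSP81-2 (LOC4347402) read 10.93 and 11.24 in air and 12.53 and 12.44 in anoxia, a rise of 1.40 ± 0.19 (limma, adjusted p = 0.00899; 0.0507 to 0.0651 with any 1 array left out). The other HSP81 genes depended on the probe set: the brightest of HSP81-1 differed by 0.01 and a dimmer one rose by 2.57, and the 3 tested ones of HSP81-3 ranged from 0.51 to 1.68. The difference between HSP81-2 and BIP1 was not tested.

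Of 12 tested thioredoxin genes, whose proteins share the active-site fold of PDI, 2 fell and 1 rose (median change -0.17), beside 18.0% and 15.9% of all tested genes. Trx01 (LOC4325189) fell by 2.08 ± 0.23 (limma, adjusted p = 0.00524) and Trxy (LOC4324458) fell by 2.01 ± 0.39 (adjusted p = 0.0206). Trxm5 (LOC9270622) read 3.08 and 3.43 in air, at background, and passed the filter on mean level only through its anoxic values, so that its call was favoured by the filter. It read 6.13 and 5.06 in anoxia, at least 2.91-fold higher against the 4.05 of the reporter probe sets (adjusted p = 0.016). The calls of Trx01 and Trxm5 were lost without aerobic replicate 1 or 2 (0.0505 and 0.0577, and 0.128 and 0.107). That of Trxy was lost without aerobic replicate 2 (0.0678) or either anoxic array (0.114 and 0.0933).

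Seed storage proteins are what PDIL1-1 and PDIL2-3 help to fold in endosperm, and the transcripts of most such genes with a probe set read near background in these coleoptiles. Of 9 seed storage genes with a probe set, 1 passed the filter, GLUA-2 (LOC4348563), a glutelin. It read 5.44 and 5.74 in air and 5.61 and 5.46 in anoxia (difference -0.06 ± 0.20, limma, adjusted p = 0.843). Endosperm storage markers summed to 120 and 129 intensity units in air and 126 and 121 in anoxia over 14 probe sets, with 7 of 8 genes (all but GLUA-2) at or under 4.05 on every array.

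Markers of other cells moved in part with the groups. Leaf and photosynthesis markers, with 7 of 28 genes on the array by a probe set of their own, summed to 476 and 450 intensity units in air and 382 and 348 in anoxia. CAB2R, PSB28, rca and RBCS1 were at or under 4.05 on every array, and the 3 tested genes differed among themselves. PSAG fell by 1.40 on the log2 scale, from 159 and 166 intensity units in air to 64.4 and 57.8 in anoxia, which is about the size of the drop in the sum. PSAH stood at 0.47, with both anoxic arrays higher, and rbcS at 0.05 (limma, adjusted p = 0.0965 and 0.845). Markers of dividing cells (14 of 16 genes) summed to 211 and 273 in air and 338 and 495 in anoxia. Of these, 5 genes (CycB1-1, MCM3, MCM4, MCM5 and MCM8) were at or under 4.05 on every array. Of the 3 tested, CDKB2-1 rose by 1.14 (limma, adjusted p = 0.0292). PCNA, at 61.5 and 114 intensity units in air and 134 and 209 in anoxia, stood at 0.99 and was not called (adjusted p = 0.121). MCM9 was not called either, at -0.20 on its brightest probe set and 0.13 on a dimmer one. The remaining genes, CYCB1-1 (LOC4327547), both CYCB2 genes, MCM2, MCM6 and MCM7, missed the filter on mean level and were not tested. Their aerobic values were all under 4.05. Both anoxic arrays were higher than both aerobic arrays in each of them, as in 40.7% of all tested genes. The part of leaf tissue, of dividing cells and of the cutting in the falls of the PDIL genes and BIP1 was not tested.

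The genes with a name whose profile over the 4 arrays was most like that of each of the 10 were found by the Euclidean distance between log2 values centred on each gene's mean, among 1832 others. With 4 arrays in 2 groups, this likeness rests mostly on the size of the group difference. For BIP1 they were PSAG (listed as OSA15), gKOCIII and CSLC2. For PDIL1-1 they were DI19-3, BI-1 and OSE727A, for PDIL1-4 HAK9, HCT3 and Osnph1a, and for PDIL1-5 DAPB1, SAT5 and OsPAB1. PDIL2-3 was nearest to gKOCIII, AT7 and GLB, and PDIL2-1 to HAK2, OsVDAC3 and GF14D. The genes without a call were nearest to others with small changes: PDIL2-2 to OsSPP1, FTIP1 and GLL, PDIL5-1 to NEDD8, OsCASPL2B1 and CNIH1, PDIL5-2 to DTM1, CSTLP1 and HDH, and PDIL5-4 to OsRPT1, XBOS32 and MAPKK1. The distances ranged from 0.0286 log2 units for DTM1 to 0.222 for CNIH1. No ER folding gene outside these 10 was among them.

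**Figure D4:**
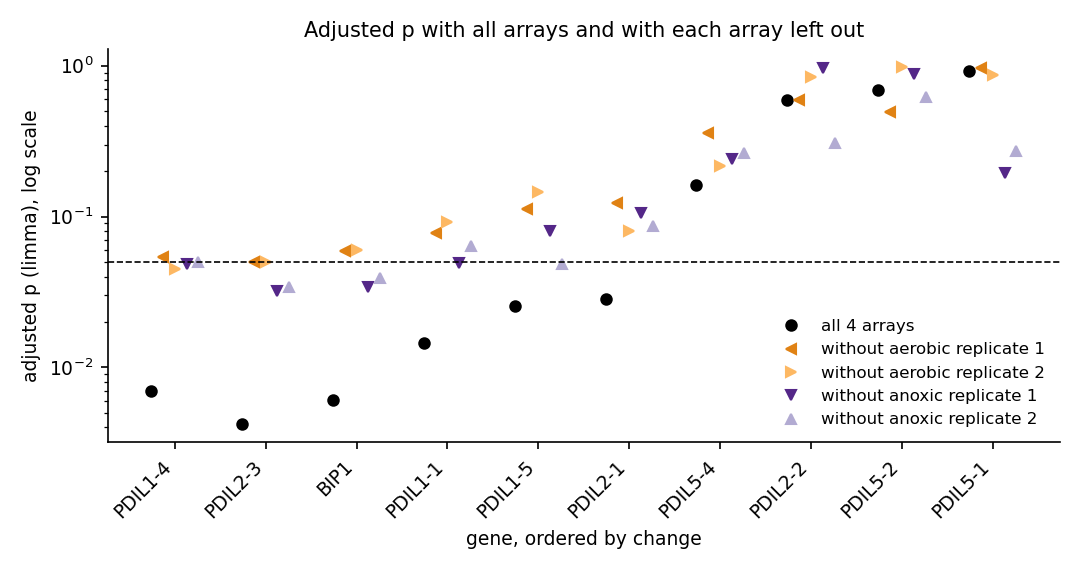
Adjusted p (limma, log axis) of the 9 PDIL genes and BIP1 with all 4 arrays (black) and with each array left out in turn (coloured triangles); the dashed line is 0.05. With all arrays 6 genes lie under the line, and only PDIL2-3 stays under it in all 4 other fits, at 0.0496 and 0.0498 without an aerobic array.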

How the data were processed

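The authors deposited linear-scale normalized intensity values for every array, made with GCRMA per the submitters' processing notes (version not given in the sources used here). Of 57381 probe sets, 187 control probe sets were left out. Per the platform annotation, which can be old, 22436 had 1 gene, 95 several (left unnamed) and 34663 none. All 17905 genes matched the RefSeq gene table (assembly ASM3414082v1), which was used for names and gene order only. Levels are log2(intensity + 1), and fold changes on this scale understate dim genes. The 18826 probe sets whose mean reached 4 were fitted with limma 3.58.1 in R 4.3.3 (lmFit, eBayes, 2-sided), with Benjamini-Hochberg adjustment over all of them. The fit had 2 residual degrees of freedom and 2.34 prior ones. A gene's brightest tested probe set represents it. Those of PDIL2-1, PDIL2-3, BZIP39, BZIP60, HSP81-3, Trxm5, rbcS and MCM9 have suffixes that mark probes which may also match other transcripts. Of these steps, only the limma fit was run on simulated data. There the changes were larger than those of the PDIL genes and BIP1, and a smaller share of probe sets changed. It does not show how calls of the size seen here behave.

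The genes and lists were chosen with earlier results of these data known. Lists were matched on symbols and synonyms, and 12 genes that share only a name pattern with the ER list (such as bip115 and BIPP2C1), 1 with the thioredoxins, 1 with the storage list and 1 with the leaf markers were left out. Named genes are all PDIL genes and BIP1, the called genes of the ER list with further ones by smallest p up to 8, up to 2 rises and 2 falls per other list (or the gene with the smallest p), and the 3 most alike genes each. BIP4, BZIP60, the sensor, J-domain, degradation and transferase genes and HSP81-1 and HSP81-3 were named after their values were seen. Alternatives were other pseudocounts, filters, scalings, eBayes settings, probe set means, a replicate block and each array left out.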

Additional observations from a re-analysis of the deposited data

How the results depend on the processing

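With 2 arrays a group, the calls depend on single arrays. The changes of the 5 called genes among PDIL and BIP1 kept their sign in every alternative, and 0 genes of the 10 were called higher in any (limma). With no filter on mean level the fit called 1709 probe sets, 2 of the 10 genes and 2 genes of the ER list, and the calls of PDIL1-1, PDIL1-4 and PDIL1-5 were lost (adjusted p = 0.0839, 0.0738 and 0.174); this fit adjusts over 57194 probe sets. Raising the filter to 6 called 3829 of 11354 probe sets tested. With the adjusted p alone, 11 genes of the ER list passed, 10 lower and 1 higher, and 6 of the 10. A pseudocount of 16 left PDIL1-5 at -0.99, short of the fold threshold. With 1 array left out, the counts ran from 2083 to 4253 probe sets, from 1 to 4 of the 10 genes and from 1 to 6 genes of the ER list. With the filter also recomputed on the 3 arrays left, an alternative chosen after seeing the data, they were 1894 and 1916 probe sets without aerobic replicate 1 and 2 and 4014 and 3916 without anoxic replicate 1 and 2, and ran from 0 to 3 and from 0 to 5 genes; the fit with 0 calls, without aerobic replicate 1, had 6 of the 10 and 11 of the ER list at an unadjusted p under 0.05. There PDIL2-3 lost its call without aerobic replicate 1 (0.0518) or 2 (0.0513), and PDIL1-4 without anoxic replicate 2 (0.0508). The lone array of a group is assumed to vary like the other group. Same-numbered arrays had deviations from their group means that correlated at -0.142. With 2 arrays a group this is a single value without a reference, so it cannot tell whether same-numbered samples belong together. The replicate block called 5556 probe sets, 5 of the 10 and 7 of the ER list. In that fit DAD1 and PDIL2-1 missed the p threshold (limma, adjusted p = 0.052 and 0.0725). The crossed pairing, also chosen after seeing the data, called 6467, 5 and 7. Under the other alternatives (no pseudocount, a floor of 5, quantile normalization, median centring, trended or robust eBayes, and, for genes, probe set means) the counts stayed at 5 of the 10 and 7 of the ER list. The number of arrays limits the precision, and all 10 genes read at least 6.06 on every array, above the reporter level of 4.05.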

Other observations

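Several of these genes lie next to genes with larger changes, by the order of protein-coding genes in the RefSeq gene table. Of 10 tested neighbours of the tested PDIL genes and BIP1, 4 fell and 1 rose, beside 18.0% and 15.9% of all tested genes, and neighbours chosen by position are not independent of each other. BIP1 adjoins CAT-A (LOC4328073), a catalase, which read 13.83 on average in air and was at background in anoxia, at least 879-fold lower (limma, adjusted p = 0.000568), and passed the filter on mean level only through its aerobic values. PDIL2-3 adjoins ACO1 (LOC4347225), which makes ethylene from its precursor and fell by 4.47 ± 0.32 log2 units (adjusted p = 0.00229).

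PDIL5-1 (LOC4332486), with a difference of 0.05, adjoins the metallothionein gene MT1B (LOC4332487), which fell by 4.16 ± 0.51 (limma, adjusted p = 0.00687). PDIL2-1 lies between LOC4337857, which rose by 1.30 ± 0.20 (adjusted p = 0.0118), and ERDJ3B, which fell by 1.32 ± 0.22 (adjusted p = 0.0136). These neighbours were looked up after the values of the PDIL genes were known, the fits with 1 array left out were not read for them, and shared regulation was not tested.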
